A study of Mus musculus with 6 samples.

Results

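The 10 genes described here are the goblet cell genes Atoh1, Spdef, Muc2, Fcgbp, Clca1, Zg16, Tff3, Retnlb, Spink4 and Agr2. They were chosen by symbol from a table of 31227 mouse Ensembl genes, and all 10 were found in it and entered the test of 15503 genes. The table holds RNA sequencing of mouse intestinal organoids, which are stem cell-derived cultures of the gut lining, in 3 groups of 2 libraries each. One group was wild type (WT), one was deficient for Smad4 (Smad4 KO), and one was deficient for Smad4 and received 0.5 nM TGF-β (Smad4 KO+TGFb in the labels, written Smad4 KO with TGF-β here). All groups shared a medium with EGF, Noggin, an inhibitor of BMP signalling, and R-spondin1, and all titles give 48 h. From the protocol, TGF-β may have been present for 48 h in total, or for 48 h and then 2 more days. The labels do not say how Smad4 was inactivated, from which animals, clones or part of the intestine the organoids came, or whether replicates were separate cultures, so p-values measure only the spread between these libraries. A WT group with TGF-β was not analysed here.

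Goblet cells are the mucus-secreting cells of the intestinal epithelium. They arise from crypt progenitors that escape Notch signalling and switch on Atoh1, a factor needed for all secretory lineages, after which Spdef, an ETS-type factor, drives goblet cell maturation. Mature cells fold the gel-forming mucin Muc2 in the endoplasmic reticulum with the help of the disulfide isomerase Agr2, pack it into granules and release it with other mucus proteins and small defence and repair peptides. Smad4 joins the receptor-activated SMADs downstream of both TGF-β and BMP receptors and acts with them on transcription.

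Libraries held 40.55 to 50.7 M counts (M, 1e6), and about 4 counts were taken as 1 sequenced fragment, an inference from the values. Smad4 (ENSMUSG00000024515) measured 99.36 and 109.46 CPM in WT against 21.66 and 23.07 CPM in Smad4 KO and 25.2 and 29.52 CPM with TGF-β, where CPM are counts per 1e6 counts, scaled between libraries by TMM. Smad4 KO was thus 4.67-fold below WT and the TGF-β group 3.82-fold (adjusted p = 2.72e-05 and 3.15e-05), where adjusted p is that of edgeR's quasi-likelihood test with Benjamini-Hochberg adjustment over all genes tested, and genes were called at values under 0.05. Markers of cells outside the epithelium were near 0 in every library. The summed level was 4.56 to 6.59 CPM for 6 leukocyte markers, 0.1 to 1.22 CPM for 6 fibroblast markers, with Col1a2, Col3a1 and Dcn at 0 throughout, and 0.78 to 1.89 CPM for 4 endothelial markers, with Cdh5 and Kdr at 0 throughout.

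The 10 goblet cell genes together took 4713.7 and 4715.7 CPM in the WT libraries, 3739 and 3845.3 CPM in Smad4 KO and 1940.9 and 1954.8 CPM with TGF-β. The groups did not overlap, and the sum stood at 80.4% of the WT mean in Smad4 KO and at 41.3% with TGF-β. Fcgbp, a large mucus protein that associates with Muc2, made up 57.9% to 64% of this sum in the 6 libraries. Without it the sum was 70.1% of the WT mean in Smad4 KO and 37.6% with TGF-β. In bulk RNA, fewer goblet cells and less of these transcripts per cell cannot be told apart.

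**Figure D1:**
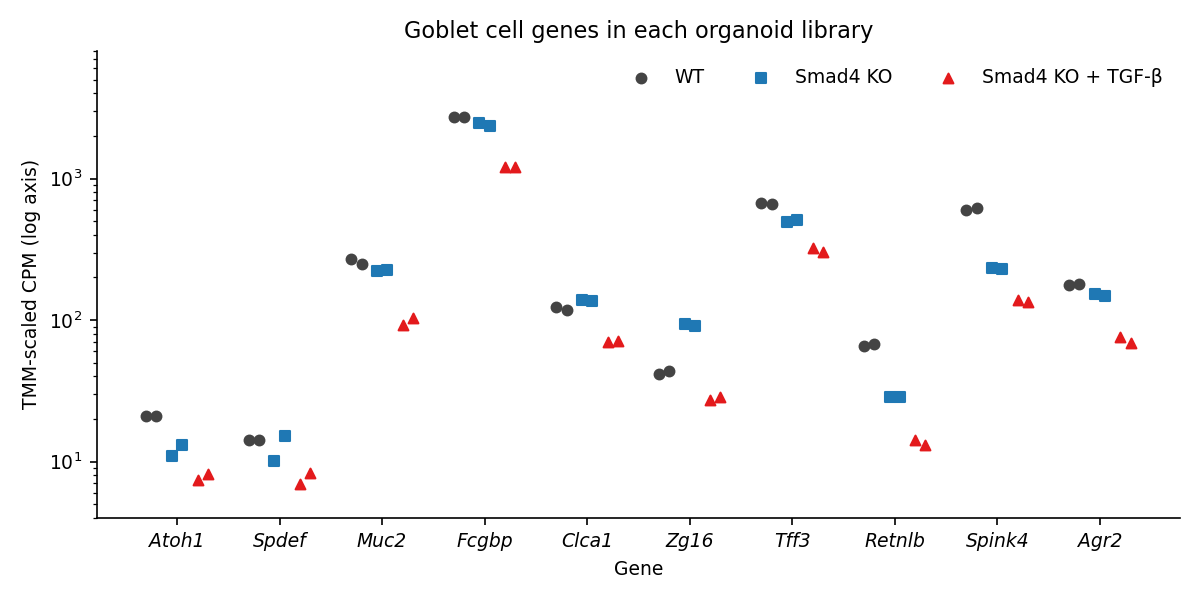
Level of each of the 10 goblet cell genes in every library, as TMM-scaled CPM on a log axis, with WT as circles, Smad4 KO as squares and Smad4 KO with TGF-β as triangles. For all 10 genes both libraries with TGF-β lie below both WT libraries, and for Zg16 and Clca1 the Smad4 KO libraries lie above WT. The share of all genes separated in this way was not counted, and 19% of all genes tested were called lower with TGF-β against WT.

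Per kilobase of exon, which allows genes to be compared with each other, Tff3 was the highest of the 10 in WT with 1350 ± 18.6 CPM per kb (mean ± SD, n = 2), rank 21 of 15489 genes. Spink4 followed with 1290 ± 28.8 CPM per kb (rank 25), then Fcgbp with 260 ± 0.501 (rank 171), Agr2 with 138 ± 2.07 (rank 317) and Retnlb with 95.4 ± 2.8 CPM per kb (rank 461). Muc2, Zg16 and Clca1 were close to each other, at 36.3 ± 1.82, 33.9 ± 1.01 and 31.7 ± 1.09 CPM per kb, although no library of one overlapped those of its neighbour. The transcription factors were lowest, with Atoh1 at 9.83 ± 0.0277 and Spdef at 6.13 ± 0.0104 CPM per kb. In WT, neighbours in this order did not overlap. In Smad4 KO, with and without TGF-β, Zg16 stood above Retnlb and Clca1 above Muc2, and only Atoh1 and Spdef overlapped. The annotation marks the Muc2 locus as fragmented, so its length, and its level per kb, are uncertain. Per kb of coding length, Muc2 stood above Clca1 in Smad4 KO (80.5 against 50.3 CPM per kb) and with TGF-β (35.3 against 25.7). Spdef stood above Atoh1 in both. The coding length was the longest single annotated coding sequence, 2.77 kb for Muc2 against 7.13 kb of exon. For a fragmented locus this may be only a part, which would raise the level per kb, so the place of Muc2 by coding length is not reliable.

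Promoter windows were at hand for 5 of the 10 genes, from RefSeq on GRCm38.p6, and 3 are printed because they belong to the main gel-forming mucin, the most abundant goblet transcript by CPM and the lineage factor. Each is the 250 bases before the annotated start, read 5′ to 3′ on the gene's strand. Capitals mark the E-box form CAGNTG on either strand, a class of sites read by basic helix-loop-helix factors, the family of Atoh1. They lie at chr7:141690090-141690339 (Muc2, plus strand), chr7:28070986-28071235 (Fcgbp, plus strand) and chr6:64728875-64729124 (Atoh1, plus strand).
Muc2: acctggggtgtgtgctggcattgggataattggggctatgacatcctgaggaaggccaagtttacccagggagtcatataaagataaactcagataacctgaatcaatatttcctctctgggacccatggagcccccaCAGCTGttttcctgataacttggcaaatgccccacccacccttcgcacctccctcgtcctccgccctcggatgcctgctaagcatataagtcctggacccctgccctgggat
Fcgbp: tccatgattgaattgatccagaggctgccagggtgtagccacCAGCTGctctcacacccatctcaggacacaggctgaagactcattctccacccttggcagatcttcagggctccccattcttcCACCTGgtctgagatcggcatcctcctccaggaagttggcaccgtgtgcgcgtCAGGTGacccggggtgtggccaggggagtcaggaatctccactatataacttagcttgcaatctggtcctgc
Atoh1: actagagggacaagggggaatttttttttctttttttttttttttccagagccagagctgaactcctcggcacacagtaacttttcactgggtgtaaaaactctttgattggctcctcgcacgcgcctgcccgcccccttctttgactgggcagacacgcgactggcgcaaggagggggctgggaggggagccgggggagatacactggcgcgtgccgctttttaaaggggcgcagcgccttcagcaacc
The Muc2 window held 1 such E-box, starting 112 bases before the start, the Fcgbp window held 3 and the Atoh1 window 0. Of the 5 windows 2 held this motif, as did 44.8% of all 32851 windows of the same length. The short form CAGAC of the SMAD-binding element was in 3 of the 5 (Atoh1, Fcgbp and Spdef) and in 42.2% of all windows, and the TEAD motif GGAATG was in 0 of the 5 and in 12.6% of all. TATAAA was found among the 5 in Muc2 only, and in 12.4% of all. GGATGA, which holds the GGAT core favoured by Spdef, was found among the 5 in Spdef only, and in 10.3% of all. Both strands were searched for every motif, and a stretch could count for more than 1 motif.

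The first comparison, Smad4 KO against WT, asks how goblet cell genes differ between the genotypes without added TGF-β. The genes moved apart. Spink4 and Retnlb fell 2.64-fold and 2.31-fold and Atoh1 fell 1.73-fold, while Tff3, Agr2 and Fcgbp fell by less, and Zg16 rose 2.16-fold and Clca1 1.15-fold. In all, 8 of 10 were called, beside 30.3% of all genes tested. Of these 6 fell, beside 13.4% of all genes, and 2 rose, beside 16.9%. Muc2 and Spdef were not called. The median log2 fold change of the 10 was -0.24 and that of all genes -0.02.

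Among the transcription factors, Atoh1 (ENSMUSG00000073043, chromosome 6) stood at 20.89 and 20.81 CPM in WT and at 11 and 13.08 CPM in Smad4 KO. Both Smad4 KO libraries were below both WT libraries, with a log2 fold change of -0.79 ± 0.14 (SE, adjusted p = 0.00615). Spdef (ENSMUSG00000024215, chromosome 17) stood at 14.11 and 14.15 CPM in WT and at 10.15 and 15.14 CPM in Smad4 KO, so that the WT libraries lay between the Smad4 KO libraries. Its log2 fold change was -0.16 ± 0.21 (adjusted p = 0.619), and it was 0.10 without Smad4 KO replicate 1. Spdef and Atoh1 were also the genes with the fewest fragments, a mean of about 126 and 120 per Smad4 KO library.

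Muc2 (ENSMUSG00000025515, chromosome 7), the mucin that forms the mucus gel, stood at 267.9 and 249.53 CPM in WT and at 220.7 and 224.66 CPM in Smad4 KO. The groups did not overlap, but the difference was small, with a log2 fold change of -0.22 ± 0.07 and an adjusted p of 0.0541. The call turned on the analysis: Muc2 stayed above the threshold in 6 of 14 other analyses and was called lower in the rest, among them DESeq2 (adjusted p = 0.0181), and its adjusted p ranged up to 0.249. Without 1 of the libraries with TGF-β it passed as well (adjusted p = 0.0398 without replicate 1 and 0.0393 without replicate 2).

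Of the proteins secreted with Muc2, Fcgbp (ENSMUSG00000047730, chromosome 7) stood at 2729.21 and 2736.65 CPM in WT and at 2460.94 and 2346.14 CPM in Smad4 KO, a log2 fold change of -0.18 ± 0.02 (adjusted p = 0.00193). Zg16 (ENSMUSG00000049350, chromosome 7), a lectin that binds Gram-positive bacteria, stood at 41.69 and 43.49 CPM in WT and at 93 and 90.94 CPM in Smad4 KO. Its rise, 1.11 ± 0.07 on the log2 scale (adjusted p = 8.45e-05), exceeded the log2 fold change of 92.6% of all genes tested. Clca1 (ENSMUSG00000028255, chromosome 3), a secreted protease that cleaves Muc2, stood at 122.63 and 116.83 CPM in WT and at 139.48 and 136.15 CPM in Smad4 KO. The log2 fold change of 0.20 ± 0.05 passed narrowly (adjusted p = 0.0292), and the call was lost in each of the 6 fits without 1 library, with adjusted p between 0.0536 and 0.136, and with upper-quartile scaling (0.0932).

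The secreted peptides fell. Spink4 (ENSMUSG00000028415, chromosome 4), a Kazal-type protein of goblet granules, stood at 603.56 and 622.99 CPM in WT and at 234.59 and 230.58 CPM in Smad4 KO, a log2 fold change of -1.40 ± 0.04 (adjusted p = 3.79e-06). Retnlb (ENSMUSG00000022650, chromosome 16), a resistin-like antibacterial protein, stood at 65.01 and 67.77 CPM in WT and at 28.71 and 28.74 CPM in Smad4 KO, a log2 fold change of -1.21 ± 0.08 (adjusted p = 0.000138). Tff3 (ENSMUSG00000024029, chromosome 17), the trefoil peptide of epithelial repair, stood at 674.03 and 661.05 CPM in WT and at 495.17 and 506.41 CPM in Smad4 KO, a log2 fold change of -0.41 ± 0.04 (adjusted p = 0.000421). In all 3 the gap between the groups was many times the gap between replicates. Agr2 (ENSMUSG00000020581, chromosome 12) stood at 176.69 and 180.46 CPM in WT and at 151.52 and 147.16 CPM in Smad4 KO, a log2 fold change of -0.26 ± 0.06 (adjusted p = 0.0235). The call for Agr2 was lost without WT replicate 1 or 2 (adjusted p = 0.0775 and 0.1) and without Smad4 KO replicate 1 or 2 (0.0653 and 0.101).

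The second comparison sets Smad4 KO organoids with TGF-β against those without it, and so shows what added TGF-β went with in cells labelled Smad4-deficient. Here all the log2 fold changes had the same sign. In edgeR, 9 of 10 genes fell and 0 rose, beside 16.3% called among all genes tested, 8.48% lower and 7.78% higher, and 0 rose at an unadjusted p under 0.05 or in DESeq2. The log2 fold changes ran from -1.71 to -0.64 with a median of -0.99, against -0.01 for all genes, and between 2.53% and 10.7% of all genes tested had a lower value than each of them. They were spread over 1.07 log2 units, against 2.51 in Smad4 KO against WT, which shares the Smad4 KO libraries. There Zg16 at 1.11 set the upper end, with Clca1 next at 0.20. The 5% to 95% range of all genes tested was also narrower, -1.128 to 1.392 with TGF-β and -1.507 to 1.446 in Smad4 KO against WT.

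Zg16 fell the most of the 10, to 27.39 and 28.7 CPM with TGF-β, a log2 fold change of -1.71 ± 0.07 (3.28-fold, adjusted p = 3.97e-05). Zg16, which had risen in Smad4 KO, thus ended below its WT libraries, as did Clca1, also called higher there. Muc2 stood at 92.24 and 103.32 CPM, 2.28-fold lower than in Smad4 KO (log2 fold change -1.19 ± 0.07, adjusted p = 0.000137). Fcgbp stood at 1200.4 and 1203.18 CPM and was 2-fold lower (adjusted p = 7.12e-06), and Clca1 stood at 70.03 and 70.56 CPM and was 1.96-fold lower (adjusted p = 0.000121). For these 4 mucus proteins the groups lay far apart and replicates close together.

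Agr2, which Muc2 needs for its assembly, stood at 76.39 and 69.01 CPM with TGF-β, 2.05-fold lower than in Smad4 KO (adjusted p = 0.000175). Retnlb stood at 14.25 and 13.04 CPM, 2.1-fold lower (adjusted p = 0.000456). The other peptides moved less: Spink4 stood at 139.28 and 133.14 CPM, 1.71-fold lower (adjusted p = 9.98e-05), and Tff3 at 320.57 and 303.56 CPM, 1.6-fold lower (adjusted p = 0.000116).

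The 2 factors had the largest SEs of the 10 genes. Atoh1 stood at 7.36 and 8.12 CPM with TGF-β, 1.56-fold lower (log2 fold change -0.64 ± 0.14, adjusted p = 0.0244). Its call was lost without WT replicate 1 or 2 (adjusted p = 0.052 and 0.051), without Smad4 KO replicate 2 (0.105), without either library with TGF-β (0.124 without replicate 1 and 0.0686 without replicate 2) and in the 4 libraries alone (0.0583). Spdef stood at 6.92 and 8.23 CPM, below both Smad4 KO libraries, but did not pass (log2 fold change -0.74 ± 0.21, adjusted p = 0.0654). It passed in DESeq2 (adjusted p = 0.0235) and without Smad4 KO replicate 1 (0.0247).

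**Figure D2:**
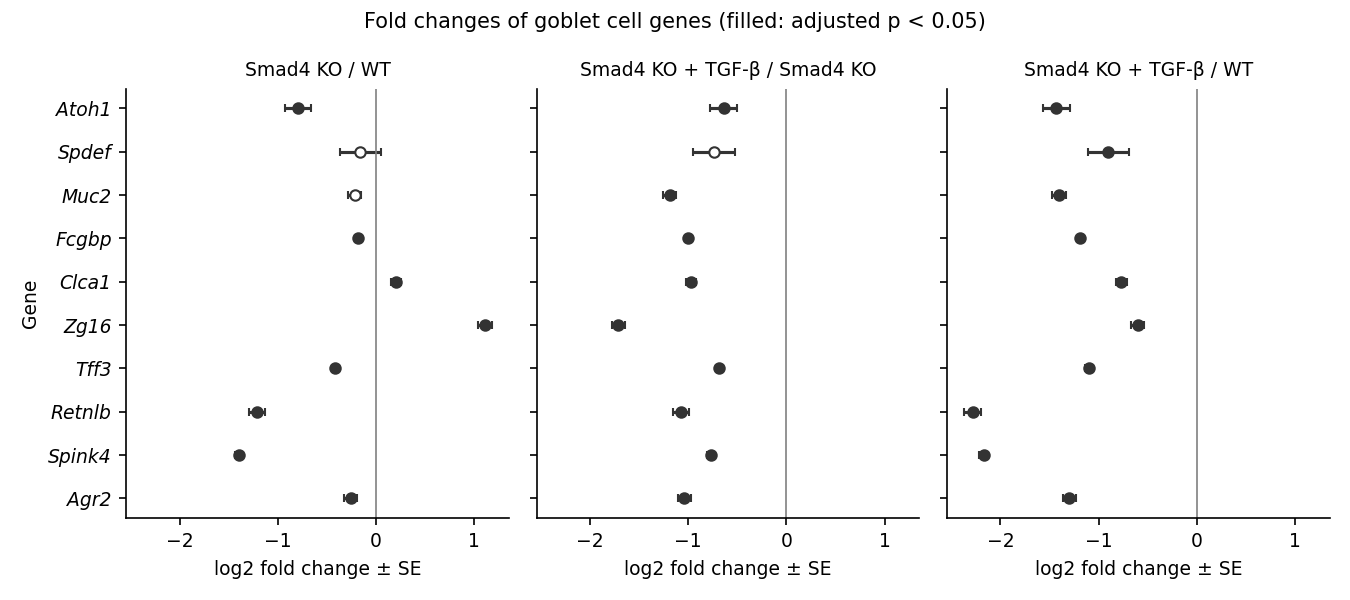
Log2 fold change of each gene with its SE in the 3 comparisons, filled where the adjusted p was under 0.05. Values scatter on both sides of 0 for Smad4 KO against WT, from -1.40 for Spink4 to 1.11 for Zg16, and all lie below 0 in both comparisons with the TGF-β-treated group.

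Against WT, organoids that were Smad4-deficient and received TGF-β had lower levels of all 10 genes, and each of these passed, beside 39.7% of all genes tested that were called and 19% that were lower. In edgeR 0 rose, also at an unadjusted p under 0.05 and in DESeq2. Retnlb was 4.86-fold lower (log2 fold change -2.28 ± 0.09, adjusted p = 7.1e-06) and Spink4 4.5-fold lower (-2.17 ± 0.04, adjusted p = 6.26e-07). Atoh1, Muc2, Agr2, Fcgbp and Tff3 formed a middle group, 2.69-fold, 2.65-fold, 2.46-fold, 2.27-fold and 2.14-fold lower, with adjusted p from 7.85e-07 to 0.000373. Spdef was 1.86-fold, Clca1 1.7-fold and Zg16 1.52-fold lower (adjusted p = 0.0166, 8.86e-05 and 0.000727). Spdef did not pass without WT replicate 1 or 2 (adjusted p = 0.0661 and 0.0633) or without replicate 1 of the TGF-β group (0.0926). This comparison shares libraries with both others, so its log2 fold changes are the sum of theirs.

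The make-up of the group therefore differed between conditions as well as its total. Of the summed CPM of the 9 genes other than Fcgbp, Spink4 took 30.4% and 31.5% in the WT libraries, 16.9% and 16.6% in knockout libraries and 18.5% and 18% with TGF-β. Zg16 took 2.1% and 2.2% in WT, 6.72% and 6.53% in knockout libraries and 3.63% and 3.89% with TGF-β. Tff3 took 33.9% and 33.4% in WT, then 35.8% and 36.4%, then 42.5% and 41.2%, while its level fell in both steps. Spink4 and Zg16 differed the most in pattern of any pair among the 10: the ratio of Spink4 to Zg16 CPM was 14.5 and 14.3 in WT, 2.52 and 2.54 in knockout libraries and 5.08 and 4.64 with TGF-β. By contrast Agr2 and Muc2 kept close, with Agr2 at 0.66 and 0.723 of Muc2 CPM in WT, 0.687 and 0.655 in knockout libraries and 0.828 and 0.668 with TGF-β, so that the 3 groups overlapped. The ratio of Muc2 to Atoh1 CPM was 12.8 and 12 in WT, 20.1 and 17.2 in knockout libraries and 12.5 and 12.7 with TGF-β. These ratios describe the libraries and were not tested.

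**Figure D3:**
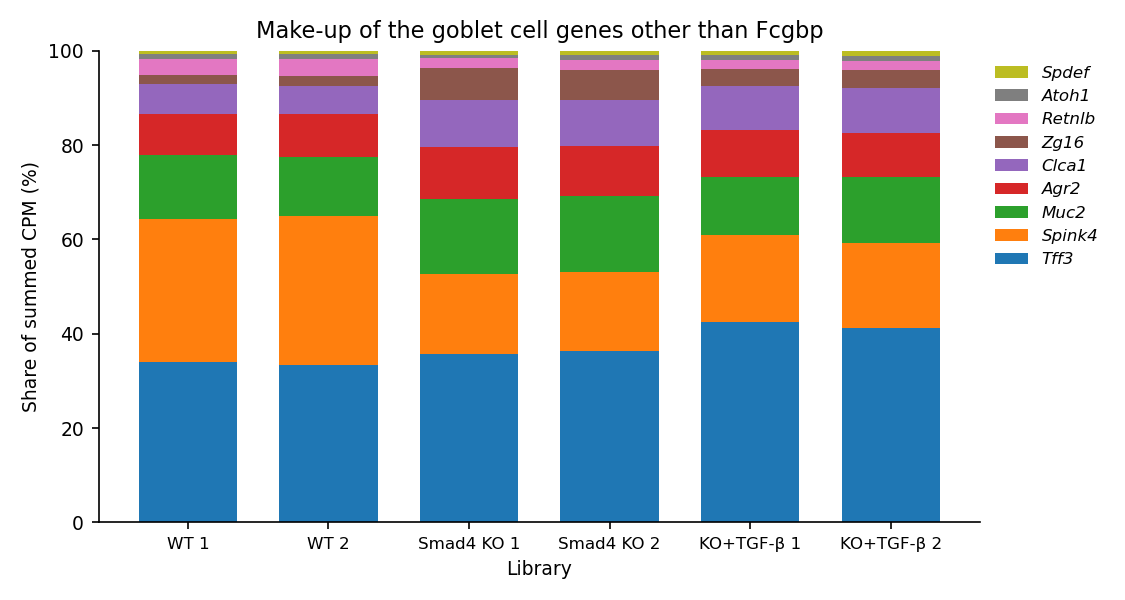
Share of each gene in the summed CPM of the 9 goblet cell genes other than Fcgbp, 1 bar per library, in percent. Spink4 takes 30.4% and 31.5% of the WT bars and 16.6% to 18.5% of the others, and Zg16 is widest in Smad4 KO at 6.53% and 6.72%.

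Patterns over the 6 libraries were also compared within the group, as the distance between log2 levels centred on each gene's own mean. Fcgbp and Agr2 were nearest to each other (distance 0.154), Muc2 was nearest to Fcgbp (0.278) and Spink4 to Retnlb (0.291). Zg16 was far from all others, 0.961 from Clca1, its nearest. Among 10705 other genes with at least 5 CPM on average, those most like Muc2 were Slc35f2 (distance 0.177), Slc27a2 (0.18) and Rragd (0.191). Slc27a2, a fatty acid transporter and acyl-CoA synthetase, measured 79.6 and 75.12 CPM in WT libraries, 63.53 and 64.77 in knockout libraries and 25.36 and 26.42 after TGF-β.

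Other genes linked to goblet cells moved in part with the 10. Of all genes tested, 16.9% were higher and 13.4% lower in Smad4 KO, and 7.78% higher and 8.48% lower with TGF-β. The counts of each list below are to be read beside these shares. Of 24 other goblet cell genes 22 were tested, and in Smad4 KO 7 fell and 2 rose against WT, with a median log2 fold change of -0.16. In the other analyses that kept both libraries of the groups compared, 6 to 9 fell and 2 or 3 rose. Ccl6 (adjusted p = 0.0445) lost its call with no filter on low counts, with a replicate block and in the 4 libraries alone. The angiogenin Ang4, which Paneth cells make too, was 2.51-fold lower and Guca2a, the precursor of the peptide guanylin, 1.71-fold lower (adjusted p = 3.06e-05 and 0.000111). The 2 that rose were the actin-severing protein Scin, 3.01-fold, and Ern2, the stress sensor of mucus cells, 1.48-fold (adjusted p = 0.00013 and 0.0044). With TGF-β 11 fell and 2 rose against Smad4 KO, with a median of -0.50. Klk1, a kallikrein, was 2.36-fold lower (20.9 to 8.86 CPM) and Hepacam2 1.94-fold lower (29.1 to 15 CPM), with adjusted p of 0.000428 and 0.00121. Mlph, a linker of granules to myosin, rose 1.57-fold (adjusted p = 0.00139), and the rise of Ang4 (1.19-fold, adjusted p = 0.0428) was lost without either WT library, Smad4 KO replicate 1 or either library with TGF-β, with adjusted p of up to 0.162 over all analyses. The number that fell was 8 to 11 in the fits without 1 library.

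Among 20 factors of the secretory lineages, 8 fell and 1 rose in Smad4 KO, and 5 to 8 fell in the fits without 1 library. Bhlha15, a factor of secretory cell architecture, was 2.7-fold lower (39.5 to 14.7 CPM, adjusted p = 0.000222), and Sox9, a factor of crypt base and Paneth cells, 1.49-fold lower (173 to 116 CPM, adjusted p = 0.000373). The Notch ligand Dll1 was 1.49-fold higher (adjusted p = 0.00646), although 20.5% of its exon length overlaps another gene. With TGF-β 5 fell and 2 rose. Creb3l1, which serves the secretory pathway, was 1.69-fold lower and Xbp1, of the unfolded protein response, 1.35-fold lower (adjusted p = 0.00139 and 0.00199). Neither was called in Smad4 KO, with log2 fold changes of 0.01 and 0.05 (adjusted p = 0.919 and 0.523). Sox9, Foxa3 and Dll1 were the others that fell, 1.21-fold, 1.39-fold and 1.39-fold. Sox9 was lost without Smad4 KO replicate 2 or either library with TGF-β, Foxa3 without either Smad4 KO library or TGF-β replicate 2, and Dll1 without any of these 4 libraries, with adjusted p of up to 0.0855, 0.0855 and 0.11. Thus 2 to 5 factors fell in the fits without 1 library. Foxa1 rose 1.71-fold (adjusted p = 0.000427) and Elf3 1.2-fold (adjusted p = 0.0109), the latter not without Smad4 KO replicate 2 or TGF-β replicate 1 (up to 0.0678). Gfi1, which separates goblet and Paneth from endocrine fate, averaged 5.83 CPM in WT, 3.43 in knockout libraries and 2.18 with TGF-β. It was called for the TGF-β group against WT alone (adjusted p = 0.0126), and not there without WT replicate 1 or TGF-β replicate 1 (up to 0.0669).

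Of 7 other mucins tested, 3 rose and 1 fell in Smad4 KO. The membrane mucin Muc13 rose 1.38-fold (634 to 874 CPM, adjusted p = 5.11e-05), Muc3 rose 3.56-fold (24.5 to 87.1 CPM, adjusted p = 0.000558), and Muc4 fell 1.83-fold (144 to 78.8 CPM, adjusted p = 0.000621). Muc1, the third that was called higher, had 0 counts in WT and 37 in both Smad4 KO libraries together, and lost its call without either WT library, Smad4 KO replicate 2 or either library with TGF-β (adjusted p of up to 0.084). With TGF-β 3 fell against Smad4 KO, Muc13 1.17-fold, Muc3a 1.97-fold and Muc3 1.6-fold (adjusted p = 0.0018, 0.00436 and 0.0415). In edgeR 0 rose, also at an unadjusted p under 0.05 and in DESeq2. The fall of Muc3 was lost without each of the 4 libraries compared (adjusted p of up to 0.177). Muc5ac, the gel-forming mucin of the stomach, was at 0 in all libraries, and Muc5b had 4 or 5 counts per group.

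Of 10 relatives of these genes that were tested, 3 rose and 0 fell in Smad4 KO, with 0 lower also at an unadjusted p under 0.05 and in DESeq2. Spink1 rose 3.82-fold (adjusted p = 0.00015), opposite to Spink4, and Clca4b rose 1.17-fold (adjusted p = 0.00194). Agr3, the paralog of Agr2, was called higher at low levels (1.95 to 4.55 CPM, adjusted p = 0.0276), but not without WT replicate 1 or either Smad4 KO library (up to 0.122). With TGF-β 5 fell and 0 rose in edgeR (1 rose at an unadjusted p under 0.05 and 0 in DESeq2), and 3 to 5 fell without 1 library. Clca3b, the most abundant relative, averaged 1060 CPM in WT, 1020 in knockout libraries and 439 with TGF-β, a 2.32-fold fall (adjusted p = 3.71e-06). Clca3a2 fell 1.83-fold and Agr3 5.49-fold (adjusted p = 0.00251 and 0.00409). Clca3a1 fell 1.39-fold and Spink1 1.57-fold, with the first lost without either Smad4 KO library or TGF-β replicate 1 (up to 0.0644) and the second without either Smad4 KO library or TGF-β replicate 2 (up to 0.088). Clca4b, from the same cluster, had a log2 fold change of 0.04 (adjusted p = 0.469). Members of the Clca cluster are similar in sequence, so reads may be divided between them.

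Enzymes that build mucin sugars moved both ways. Of 22 tested, 8 rose and 4 fell in Smad4 KO. In the other analyses that kept both libraries of the groups compared, 6 to 9 rose and 4 fell. Galnt1 (adjusted p = 0.0398) lost its call with upper-quartile scaling, with a replicate block and in the 4 libraries alone. The branching enzyme Gcnt4 was 2.92-fold and Galnt6, which starts O-glycans, 1.48-fold higher (adjusted p = 1.51e-05 and 0.00027). St3gal1, a sialyltransferase, fell 1.73-fold, Galnt12 1.42-fold, Gcnt3 1.27-fold and Galnt7 1.19-fold (adjusted p = 0.00216, 0.00608, 0.00753 and 0.00788). With TGF-β 5 rose and 5 fell, and 3 to 5 in each direction without 1 library. Gcnt1, another branching enzyme, rose 4.36-fold (5.53 to 24.2 CPM, adjusted p = 0.00176), Galnt3 1.53-fold and B3gnt3, which extends core chains, 1.29-fold. Fut2, which adds the fucose of H-type sugars, fell 7.22-fold at low levels (4.58 to 0.632 CPM, adjusted p = 0.00104), so the size of its fold change rests on few counts. St3gal1 fell 1.94-fold (adjusted p = 0.00194). The other calls each failed without some library. C1galt1, 1.25-fold higher, failed without either library with TGF-β (up to 0.0561), and Gcnt3, 1.21-fold higher, without WT replicate 1, Smad4 KO replicate 2 or either library with TGF-β (up to 0.12). Gcnt4, 1.3-fold lower, failed without TGF-β replicate 1 (0.0597), Chst4, 1.53-fold lower, without replicate 2 of Smad4 KO or of TGF-β (up to 0.0649), and B3gnt7, 1.7-fold lower, without replicate 1 of either (up to 0.078).

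Genes of mucin folding and granules rose in 7 of 24 cases and fell in 3 in Smad4 KO. The 3 that fell were 12.5% of the list, near the 13.4% of all genes tested. The disulfide isomerase P4hb was 1.49-fold and Nlrp6, an inflammasome protein that acts in mucus release, 1.33-fold higher (adjusted p = 2.11e-05 and 0.000363), whereas the oxidase Ero1l was 2-fold and the isomerase Pdia6 1.2-fold lower (adjusted p = 3.37e-06 and 0.00544). Tmed3 was 1.24-fold lower, but not without either WT or either Smad4 KO library (adjusted p of up to 0.151). With TGF-β 5 fell and 0 rose in edgeR (1 rose at an unadjusted p under 0.05 and 1 in DESeq2, where 8 fell), and 3 to 5 fell without 1 library. Nlrp6 was 1.79-fold (433 to 241 CPM), P4hb 1.43-fold and Ero1l 1.22-fold lower (adjusted p = 4.74e-05, 8.77e-05 and 0.00123). Pdia6 and the chaperone Hspa5 fell 1.15-fold and 1.1-fold. Both were lost without Smad4 KO replicate 2 or either library with TGF-β, and Hspa5 also without Smad4 KO replicate 1 (up to 0.123 and 0.12).

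Against WT, the TGF-β group had 14 of the 22 other goblet cell genes lower and 3 higher, beside 19% and 20.7% of all genes tested. In the other analyses that kept both libraries of the groups compared, 13 or 14 were lower and 3 higher. Capn9 (adjusted p = 0.0359) lost its call with a replicate block and in the 4 libraries alone. Guca2a was 2.27-fold and Klk1 4.05-fold lower (adjusted p = 1.23e-05 and 2.04e-05), and Mlph 1.37-fold and Ern2 1.39-fold higher (adjusted p = 0.0022 and 0.00637). Of the factors 11 were lower and 2 higher, led by Sox9, 1.8-fold, and Bhlha15, 3.22-fold lower (adjusted p = 4.66e-05 and 6.84e-05). Among sugar enzymes 8 were higher and 4 lower, with B3gnt3 1.72-fold higher and St3gal1 3.35-fold lower (adjusted p = 3.09e-05 and 5.43e-05). Among folding and granule genes 4 were higher (16.7%) and 6 lower (25%), beside 20.7% and 19% of all genes tested. The granule SNARE Vamp8 was 1.65-fold higher and Ero1l 2.43-fold lower (adjusted p = 0.000282 and 1.14e-06).

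**Figure D4:**
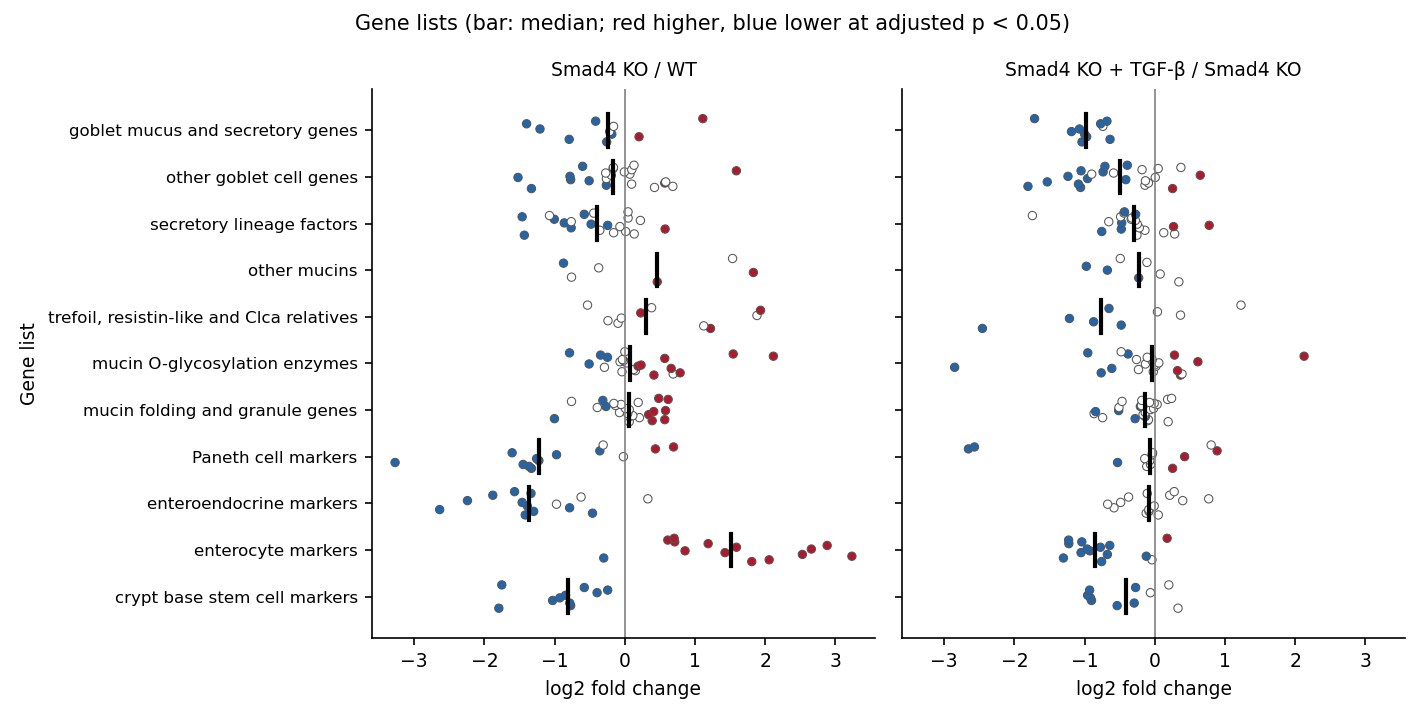
Log2 fold changes of tested genes by list, for Smad4 KO against WT and for the TGF-β group against Smad4 KO, with a black bar at each list's median and colour where a gene passed. Genes at or under 12 counts in a group compared are not drawn but count in the median. The goblet genes have medians of -0.24 and -0.99, and enterocyte markers of 1.51 and -0.85.

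Of 9 genes of the Notch and interleukin pathways that act on goblet fate, 2 rose and 2 fell in Smad4 KO, and 3 rose and 0 fell with TGF-β, with 0 lower also at an unadjusted p under 0.05 and in DESeq2. The Notch ligand Jag1 averaged 13.4, 22.8 and 44.2 CPM in the 3 groups, 1.7-fold higher in Smad4 KO than in WT (adjusted p = 0.00374) and 1.94-fold higher again with TGF-β (adjusted p = 0.00253). Il13ra1 rose 1.73-fold in Smad4 KO (adjusted p = 0.000451) and Il4ra, a receptor chain for the interleukins that expand goblet cells, 1.79-fold with TGF-β (adjusted p = 0.000867). The receptors Notch1 and Notch2 fell 1.28-fold and 1.4-fold in Smad4 KO, but not without WT replicate 2 or Smad4 KO replicate 1 (up to 0.082 and 0.0638). Notch2 rose 1.41-fold with TGF-β, but not without Smad4 KO replicate 1 or TGF-β replicate 2 (up to 0.0932). Hes1, a Notch target on the list of lineage factors that represses Atoh1, averaged 71.3, 83.2 and 68.7 CPM. It was not called in the main edgeR fit in any comparison (adjusted p = 0.0746, 0.0594 and 0.621). DESeq2 called it higher in Smad4 KO (0.0367) and lower with TGF-β (0.018). With a stricter filter at 1 CPM, edgeR also called it lower with TGF-β against Smad4 KO.

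Markers of other epithelial cells moved in the same libraries, and their part in the values of the goblet cell genes was not tested. The summed level of 13 Paneth cell markers was 8751.87 to 8759.63 CPM in WT, 3540.31 to 3706.46 in knockout libraries and 3499.3 to 3617.7 with TGF-β, with 9 lower and 2 higher in the first comparison and 3 lower and 3 higher in the second. In the fits without 1 library 1 or 2 were higher in each comparison. Mptx1 was lost in Smad4 KO without either WT or either Smad4 KO library (adjusted p of up to 0.171), and Habp2 with TGF-β without either Smad4 KO library or either library with TGF-β (up to 0.0917), besides Ang4 as given above. Lyz1, the lysozyme of Paneth cells, was 3.04-fold lower in Smad4 KO (adjusted p = 3.03e-07), while Mptx2 was higher (adjusted p = 0.00364). With TGF-β, Mptx1 and Mptx2 fell and Mmp7 rose against Smad4 KO (adjusted p = 8.45e-05, 5.31e-05 and 0.00043), although the sums were similar. Enteroendocrine markers summed to 1088.2 to 1103.3 CPM in WT, 442.13 to 463.91 in knockout libraries and 423.7 to 442.66 with TGF-β. Of these, 11 of 14 fell in Smad4 KO, and with TGF-β 0 rose and 0 fell in edgeR, with 2 and 2 at an unadjusted p under 0.05 and 0 and 1 in DESeq2. Enterocyte markers, from absorptive cells, summed to 6575.23 to 6577.1 CPM in WT, 20180.8 to 20375.32 in knockout libraries and 12809.62 to 12833.62 with TGF-β, with 13 of 14 higher in Smad4 KO and 12 of 14 lower with TGF-β, where Sis, the sucrase-isomaltase, fell 2.34-fold (adjusted p = 1.28e-06). Crypt base stem cell markers summed to 7487.75 to 7527.79, 4434.85 to 4485.1 and 2971.87 to 2998.94 CPM, and 10 of 10 fell in Smad4 KO and 7 with TGF-β. Tuft cell markers were low, at 13.21 to 23.83 CPM over the 10 genes, with Il25 at 0 in all libraries. The 12 proliferation genes all fell in Smad4 KO, and 0 moved with TGF-β in edgeR, where 1 rose and 3 fell at an unadjusted p under 0.05 and 0 and 2 in DESeq2. A list of gastric and pancreatic markers summed to 29.26 to 50.27 CPM, with Cpa1, Prss1 and Ptf1a at 0 throughout.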

How the data were processed

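Total RNA from 6 organoid libraries was sequenced after random-hexamer priming, per the labels' protocols. The authors deposited estimated counts per Ensembl gene as whole numbers, and per the submitters' processing notes HISAT2 2.1.0 and StringTie 1.3.3b were used, besides SAMtools 1.9 and FastQC 0.11.9, with GRCm38. Annotation release and strand setting were not given in the sources used here. Of the low values 42.3% were multiples of 4, against 25% if evenly spread, so a fragment was taken as about 4 counts, which is an inference. On that scale, replicates differed by more than sampling noise (chi-square per degree of freedom 5.46 to 6.48).

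Libraries were grouped by title. Genes were filtered with filterByExpr, scaled by TMM and tested 2-sided in edgeR 4.0.16 (glmQLFit, glmQLFTest, R 4.3.3) on group alone, leaving 3 residual degrees of freedom. SEs are the absolute log2 fold change divided by the square root of the F statistic. Lengths and positions come from GENCODE vM21, in which no exon of the 10 genes overlaps another gene. DESeq2 1.42.0 and other alternatives were run, and the test was checked on simulated data. Over the 3 comparisons it recovered 16% to 32% of simulated 1.5-fold changes and 46% to 60% of 2-fold changes. For 8-fold changes the share was 64% to 82%, with 9 to 15 false calls, so a gene that was not called may still differ. The 10 genes and all lists were chosen with earlier results of these data known. The rule for named genes took the 10 genes, Smad4 and, per list, direction and comparison, up to 2 called genes with the smallest adjusted p, and all where 5 or fewer moved. For markers of other cells, and for the TGF-β group against WT, only some of these are printed. Hes1, Gfi1, Clca4b with TGF-β, Muc5b and Muc5ac were named after their values were seen. Distances used log2(CPM + 0.5). Of the gene IDs, 97 had no symbol. Some lists include genes that other lists hold too.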

Additional observations from a re-analysis of the deposited data

How the results depend on the processing

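Each comparison was rerun under 14 alternatives. Over the counts of genes called, the single goblet cell genes and Smad4, 582 values kept their direction and side of the threshold, or stayed within 1.5 times for a count, 10 gained a call or grew, 37 lost a call or shrank and 1 changed sign. The change of sign was Spdef in Smad4 KO against WT, at 0.10 without Smad4 KO replicate 1, with a range of -0.476 to 0.10 over the fits without 1 library. For Smad4 KO against WT, 1 goblet cell gene was higher in place of 2 with upper-quartile scaling, and 1 in all fits without 1 library, where 1166 to 1867 of all genes were lower. For TGF-β in Smad4 KO, 656 to 1108 genes were higher and 848 to 1196 lower without 1 library, and 8 to 10 goblet cell genes fell. The causes were not tested, although fewer libraries leave fewer residual degrees of freedom. With a replicate block, 6 goblet cell genes were lower and 2 higher in Smad4 KO, 9 were lower with TGF-β against Smad4 KO and 10 against WT, and no call among the 10 changed. Deviations of same-numbered libraries correlated at -0.033, 0.031 and 0.02. These values cannot settle whether libraries with the same number shared a culture, animal or batch. In the order of levels per kb, 4 genes changed place in each Smad4 KO group with GENCODE coding length, chosen after seeing the data, while the planned length from RefSeq proteins was not run. Spdef and Atoh1 had the fewest fragments, about 82 to 251 per library on average, and the largest SEs. Whether depth set these was not tested.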
